A study of Homo sapiens with 8 samples.

Results

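OPLAH, the gene of 5-oxoprolinase, was examined together with the other enzymes of the glutathione cycle in the array data of 8 stable HEK293T lines. The set consisted of 9 genes, namely OPLAH, GGCT, GCLC, GCLM, GSS, GSR, GGT1, GGT7 and CHAC1. OPLAH was chosen for its level in these same arrays, so its values are given as a description with no test, and the other genes were chosen for their place in the cycle. Probes were taken as members when their RefSeq transcript belonged to one of these genes, which gave 12 of the 34127 non-control probes and 8 of the 9 genes. No probe could be assigned to GGT1 through the RefSeq gene table, and GGT1 was not analysed here. The 8 genes with a probe were all among the 14397 named genes that entered the tests, because each exceeded background clearly on both arrays of some construct.

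HEK293T cells are an established line derived from human embryonic kidney. Cy3-labeled cRNA of each line was hybridized to 1 single-color Agilent array, with 2 clones for each of 4 constructs. All lines had been transfected, selected with blasticidin S and grown from single colonies, so each clone stands for 1 isolated line. Empty vector #1 and #2 carry no insert. TET1-CDwt #2 and #5 carry the catalytic domain of TET1, an enzyme that oxidizes 5-methylcytosine in DNA. MBD-TET1-CDwt #3 and #10 carry this domain joined to a methyl-CpG-binding domain (MBD), and MBD-TET1-CDmut #9 and #10 carry the joined form with an inactive catalytic domain. The study set out to learn whether the joined form strips methylation from many genes and raises their expression, and in prostate cancer cells whether it slows growth. Values below are log2 of the deposited intensity minus the 75th percentile of the array, pairs of values are in the order of the clones just named, and values of different probes cannot be set against each other as levels. RNA came from all cells of a clone, so a high level in some cells and a moderate level in every cell cannot be told apart.

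Glutathione is a tripeptide of glutamate, cysteine and glycine and the main soluble thiol of most cells. It is built in 2 steps, by glutamate-cysteine ligase and by glutathione synthetase, and it is opened again by gamma-glutamyl transferases at the cell surface or by CHAC enzymes in the cytosol. Gamma-glutamyl cyclotransferases release 5-oxoproline, a cyclic form of glutamate, and 5-oxoprolinase opens this ring with ATP to give glutamate back. People who lack 5-oxoprolinase excrete 5-oxoproline in urine. Kidney, from which HEK293T was derived, is a main site of this cycle in the body.

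The methyl-CpG-binding domain recognizes methylated CG pairs, so the bases just upstream of the start sites are shown for the genes that the sequence table covered. Upstream windows were given for GCLC, GCLM, CHAC1, GGT7 and GGT1. For the 4 of them that were measured, the 250 bases before the start site (RefSeq, GRCh38.p14) are printed with every CG pair in capitals.

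GCLC (chr6:53545102-53545351, minus strand): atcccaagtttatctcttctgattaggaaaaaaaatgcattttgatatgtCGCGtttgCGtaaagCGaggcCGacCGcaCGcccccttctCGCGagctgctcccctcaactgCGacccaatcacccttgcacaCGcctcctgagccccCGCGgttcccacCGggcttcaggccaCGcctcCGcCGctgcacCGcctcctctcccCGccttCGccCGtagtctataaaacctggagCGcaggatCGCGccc

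GCLM (chr1:93909431-93909680, minus strand): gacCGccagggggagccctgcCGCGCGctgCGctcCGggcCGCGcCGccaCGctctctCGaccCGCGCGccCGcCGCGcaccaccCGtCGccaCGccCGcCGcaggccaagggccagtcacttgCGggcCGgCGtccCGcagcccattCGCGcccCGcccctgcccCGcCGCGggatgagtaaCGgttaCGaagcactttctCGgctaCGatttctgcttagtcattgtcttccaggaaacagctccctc

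CHAC1 (chr15:40953221-40953470, plus strand): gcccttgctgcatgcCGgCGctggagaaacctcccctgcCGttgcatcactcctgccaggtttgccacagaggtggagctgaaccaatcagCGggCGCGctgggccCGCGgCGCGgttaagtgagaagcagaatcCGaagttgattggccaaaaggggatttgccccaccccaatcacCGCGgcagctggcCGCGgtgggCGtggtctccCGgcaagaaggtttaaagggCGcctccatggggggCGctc

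GGT7 (chr20:34872857-34873106, minus strand): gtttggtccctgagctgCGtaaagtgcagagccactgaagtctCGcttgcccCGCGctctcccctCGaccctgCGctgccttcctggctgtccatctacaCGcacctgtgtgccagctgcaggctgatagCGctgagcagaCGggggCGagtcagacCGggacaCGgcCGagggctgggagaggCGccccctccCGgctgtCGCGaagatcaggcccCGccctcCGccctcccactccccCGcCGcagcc

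GCLM had 36 CG pairs in this window, more than 95.1% of 35116 windows of the same length. GCLC had 24, GGT7 21 and CHAC1 19, more than 76.3%, 69.8% and 65.4% of the windows, where the median was 11 and the quartiles were 3 and 23. All 4 windows therefore lay above the median in CG pairs, and the arrays say nothing about their methylation. The core of the antioxidant response element, TGACNNNGC on either strand, was matched once in GCLM, 34 bases before the start, and in 10.9% of all windows. A composite of the kind bound by ATF4, TGATGNAA on either strand, was matched once in CHAC1, 209 bases before the start, and in 3.14% of all windows. The other windows printed here held neither string.

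OPLAH was bright in both MBD-TET1-CDwt clones and at or near background in the 6 other clones. The single OPLAH probe (NM_017570) read -5.64 and -5.64 in empty vector, -6.07 and -6.41 in TET1-CDwt, -2.05 and 0.90 in MBD-TET1-CDwt, and -4.88 and -6.09 in MBD-TET1-CDmut. It was well above background on 3 of 8 arrays, both of MBD-TET1-CDwt and that of MBD-TET1-CDmut #9. As intensities these were 7.10 and 8.99, 7.83 and 5.39, 84.3 and 610.7, and 11.3 and 5.69, with error estimates of the image software between 1.83 and 2.30 for the 6 dim spots and of 8.70 and 61.1 for the 2 bright ones. The dimmest signals called well above background were -6.01 to -5.51 on the 8 arrays, so the dim values are not ordered among themselves. Both MBD-TET1-CDwt clones were above every other clone, and no other construct separated from empty vector above background.

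**Figure D1:**
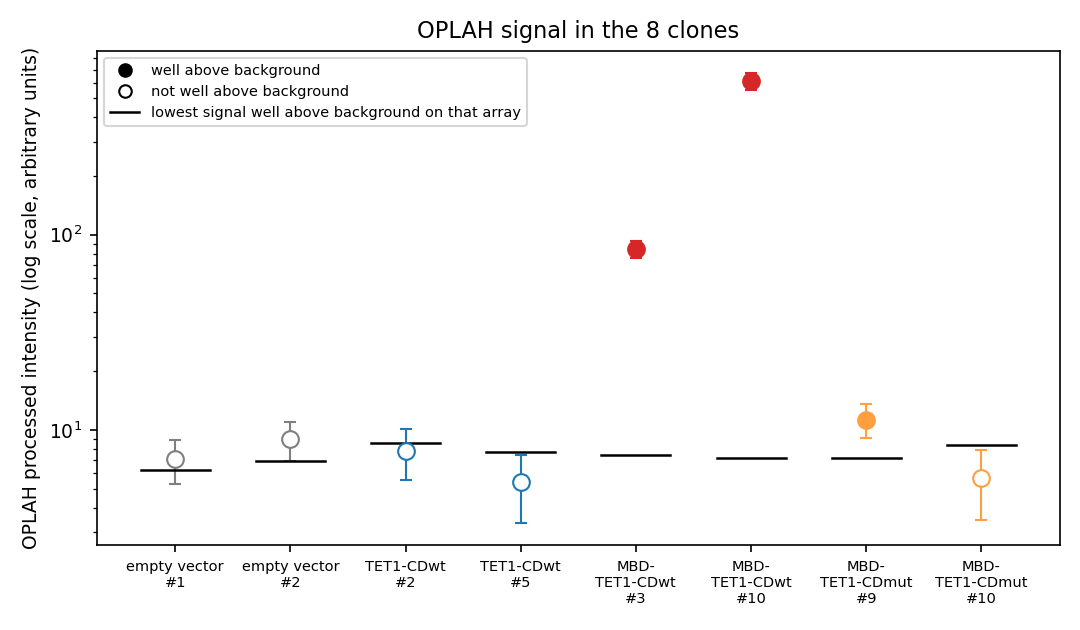
Processed intensity of the OPLAH probe (log scale, arbitrary units) in the 8 clones, with the error estimate of the image software as bars and, as a black line, the dimmest signal called well above background on that array. Filled points are well above background. MBD-TET1-CDwt #3 and #10 lie at 84.3 and 610.7, and the 6 other clones lie between 5.39 and 11.3.

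With empty vector not above background, the mean OPLAH level of the MBD-TET1-CDwt clones was 33.3-fold higher as measured. This is a log2 difference of 5.06 with a pooled SD of 1.48 (n = 2 clones each). Both empty vector spots read slightly over the lowest measurable signal of their arrays, so this ratio is not a lower limit. The smallest difference between any MBD-TET1-CDwt clone and any empty vector clone was 3.58 and the largest was 6.53. Against TET1-CDwt, with neither clone above background, the mean level was 50.7-fold higher as measured. It was 40.4-fold higher with both dim clones set to the lowest measurable signal, and the smallest difference between clones was then 14.3-fold. Against MBD-TET1-CDmut, which was above background in 1 of 2 clones, it was 24.7-fold higher with the dim clone set to the lowest measurable signal, and 30.1-fold higher as measured. This last comparison lies within 1 slide, whereas the other slide held empty vector and TET1-CDwt, so slide and construct cannot be told apart in the first 2. Normexp background correction adds a fixed offset and so compresses dim signals. With it the log2 difference was 2.15 to empty vector, 2.57 to TET1-CDwt and 2.19 to MBD-TET1-CDmut.

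The 2 MBD-TET1-CDwt clones differed from each other in OPLAH by more than almost any other gene. Clone #10 was 2.95 above clone #3 on the log2 scale, or 7.73-fold, a gap wider than that of 99.5% of tested probes in the same pair. The MBD-TET1-CDmut clones differed by 1.21, with #9 the higher, a gap wider than that of 98.9% of probes, but #10 was under its array's lowest measurable signal. Clone #3 alone was 3.58 above the empty vector mean in OPLAH, and clone #10 alone 6.53.

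Glutamate-cysteine ligase makes the first peptide bond of glutathione and is the rate-limiting step of its synthesis. Its catalytic subunit gene GCLC lay at 0.74 and 0.57 in empty vector, 0.91 and 1.02 in TET1-CDwt, 0.62 and 0.80 in MBD-TET1-CDwt, and 0.65 and 0.67 in MBD-TET1-CDmut. All 8 values fell within 0.45 on the log2 scale. GCLC in MBD-TET1-CDwt differed from empty vector by 0.05 (SE 0.17, limma adjusted p = 0.973) and from MBD-TET1-CDmut by 0.05 (limma adjusted p = 0.969). Both TET1-CDwt clones were above both empty vector clones, by 0.31 on average (limma adjusted p = 1.0).

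GCLM, the gene of the modifier subunit that raises the activity of the ligase, varied most between the sister clones of empty vector and of MBD-TET1-CDwt. It lay at 3.07 and 4.34 in empty vector, 3.11 and 3.44 in TET1-CDwt, 4.06 and 3.27 in MBD-TET1-CDwt, and 3.06 and 3.18 in MBD-TET1-CDmut. The gap of 1.27 between the empty vector clones was wider than that of 97.0% of tested probes in that pair. The difference of MBD-TET1-CDwt to empty vector was -0.04 (SE 0.44, limma adjusted p = 0.993), and it was -0.67 without empty vector #1 and 0.59 without empty vector #2. Both MBD-TET1-CDwt clones were above both MBD-TET1-CDmut clones, by 0.54 on average (limma adjusted p = 0.868).

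Glutathione synthetase, encoded by GSS, adds glycine in the last step of synthesis. GSS lay at 3.89 and 3.58 in empty vector, 3.55 and 3.41 in TET1-CDwt, 3.20 and 3.19 in MBD-TET1-CDwt, and 3.31 and 3.56 in MBD-TET1-CDmut. All 6 clones with a TET1 construct were below both empty vector clones, and both MBD-TET1-CDwt clones were below every other clone. The difference of MBD-TET1-CDwt to empty vector was -0.54 (SE 0.19), with an unadjusted p of 0.0255 that did not pass after adjustment over all probes (limma adjusted p = 0.708). The difference to MBD-TET1-CDmut, hybridized on 1 slide with it, was -0.25 (SE 0.19, limma adjusted p = 0.863).

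GSR encodes glutathione reductase, which regenerates glutathione from its oxidized dimer with NADPH. Its brighter probe lay at 0.78 and 0.53 in empty vector, 0.47 and 0.67 in TET1-CDwt, 0.55 and 0.66 in MBD-TET1-CDwt, and 0.56 and 0.45 in MBD-TET1-CDmut. This was the narrowest range of the 8 genes, 0.33 between the lowest and the highest clone, and the constructs overlapped in all 5 comparisons. The other GSR probe spanned 0.41, and its differences to empty vector lay between -0.20 and -0.15.

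GGT7 belongs to the gamma-glutamyl transferase family, whose enzymes take the glutamyl group from glutathione. It lay at -0.78 and -0.69 in empty vector, -1.28 and -0.79 in TET1-CDwt, -0.91 and -1.42 in MBD-TET1-CDwt, and -1.06 and -1.19 in MBD-TET1-CDmut. As with GSS, all 6 clones with a TET1 construct were below both empty vector clones, although TET1-CDwt #5 was close to them. The difference of MBD-TET1-CDwt to empty vector was -0.43 (SE 0.25, limma adjusted p = 0.849), and a second GGT7 probe gave -0.43 as well (SE 0.22, limma adjusted p = 0.812). In the second probe TET1-CDwt overlapped empty vector.

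CHAC1 encodes a cytosolic gamma-glutamyl cyclotransferase that cleaves glutathione itself and is known as a target of ATF4 in the response to amino acid and endoplasmic reticulum stress. Its brighter probe lay at 0.69 and 0.78 in empty vector, 1.02 and 1.43 in TET1-CDwt, 0.15 and 0.61 in MBD-TET1-CDwt, and 0.48 and 0.79 in MBD-TET1-CDmut. The constructs differed in opposite directions from empty vector, with a difference of 0.49 in TET1-CDwt and of -0.35 in MBD-TET1-CDwt, both with an SE of 0.24. The dimmer probe gave 0.47 and -0.61. Between MBD-TET1-CDwt and TET1-CDwt the difference was -0.84, with an unadjusted p of 0.0104 and a limma adjusted p of 0.827, and in the dimmer probe it was -1.07, with an unadjusted p of 0.0059 and a limma adjusted p of 0.693. None of these passed the adjustment over all probes, and these constructs lay on different slides.

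GGCT encodes gamma-glutamylcyclotransferase, which turns gamma-glutamyl amino acids into 5-oxoproline and so makes the substrate of 5-oxoprolinase. It lay at 4.98 and 4.27 in empty vector, 4.89 and 4.29 in TET1-CDwt, 4.57 and 4.34 in MBD-TET1-CDwt, and 4.47 and 4.54 in MBD-TET1-CDmut. The empty vector clones marked the highest and the lowest of the 8 values, so no construct separated from them. A second probe, designed on the transcript NM_001199815, read -2.68 and -3.04, -2.83 and -3.71, -3.57 and -3.71, and -2.76 and -3.20. There both MBD-TET1-CDwt clones were below both empty vector clones, by 0.78 on average (SE 0.32, unadjusted p = 0.0472, limma adjusted p = 0.756), while the brighter probe gave -0.17 (limma adjusted p = 0.948). The 2 GGCT probes thus agreed in sign but not in size.

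**Figure D2:**
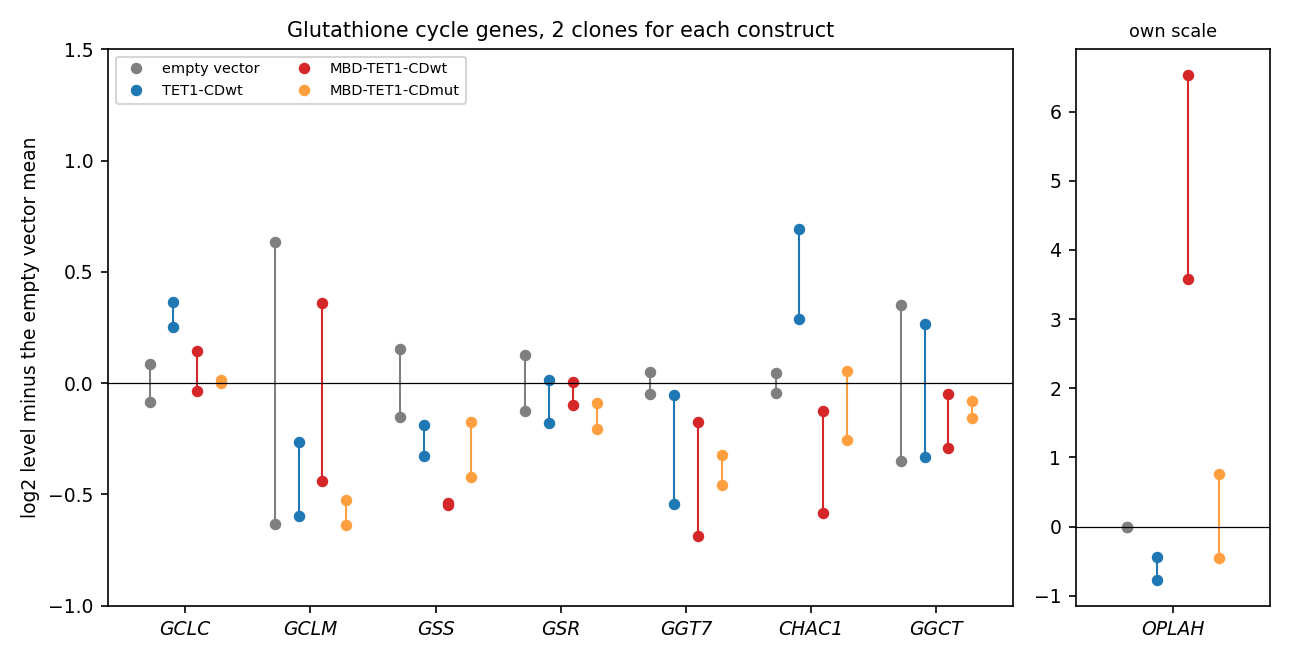
Log2 level of the brighter probe of each gene minus the mean of the 2 empty vector clones, with 1 point for each clone and a line between the 2 clones of a construct. The 7 genes on the left stay within -0.69 and 0.69 of the empty vector mean, while OPLAH, on its own scale at the right, reaches 3.58 and 6.53 in MBD-TET1-CDwt.

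Counted over the 8 genes by their brighter probe, OPLAH was the only one that exceeded empty vector at least 2-fold in MBD-TET1-CDwt, where 1.53% of all tested genes were, and 0 were at least 2-fold lower, where 0.993% were. OPLAH was also the only gene with both clones above both empty vector clones, against 15.2% of all tested genes. GSS, GGT7 and CHAC1 lay below without overlap, against 14.6%. For OPLAH these counts restate its choice. For TET1-CDwt against empty vector, GCLC and CHAC1 did not overlap on the higher side (12.5% of all genes) and OPLAH, GSS and GGT7 on the lower side (14.2%), with OPLAH not above background in either construct. A difference of at least 2-fold was found in 0 of the 8 genes there, against 0.347% of all genes on the higher and 0.347% on the lower side. For MBD-TET1-CDmut against empty vector, 0 genes were higher without overlap (17.1% of all genes), GSS and GGT7 were lower (18.2%), and 0 were at least 2-fold apart (0.424% higher, 0.326% lower). Within the slide of both fusions, OPLAH and GCLM were higher in MBD-TET1-CDwt without overlap (18.7%) and GSS was lower (16.5%). There OPLAH was at least 2-fold higher (1.56%) and 0 genes were at least 2-fold lower (1.28%). Against TET1-CDwt, OPLAH was higher without overlap (14.3%) and at least 2-fold higher (1.24%), GCLC, GSS and CHAC1 were lower (11.6%), and 0 genes were at least 2-fold lower (0.861%).

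By limma, 0 of the 7 genes other than OPLAH passed an adjusted p of 0.05 in any of the 5 comparisons. At an unadjusted p under 0.05, GSS passed in MBD-TET1-CDwt against empty vector, on the lower side, as did 3.76% of all probes (2.84% on the higher side). CHAC1 passed against TET1-CDwt, also on the lower side, as did 2.18% of all probes (2.56% on the higher side). Of the 7 genes 0 passed against MBD-TET1-CDmut, where 3.28% of all probes were higher and 3.56% lower. Of all 22530 tested probes, limma called 0.102% as higher and 0.0133% as lower for MBD-TET1-CDwt against empty vector, 0.0888% and 0.0133% against MBD-TET1-CDmut, and 0.107% and 0.00888% against TET1-CDwt. For TET1-CDwt and MBD-TET1-CDmut against empty vector it called 0 probes. Without adjustment 147 probes (0.652%) passed as higher and 417 (1.85%) as lower in TET1-CDwt, and 194 (0.861%) as higher and 409 (1.82%) as lower in MBD-TET1-CDmut. With 2 clones in each construct, differences of the sizes seen in GSS or CHAC1 did not pass adjustment over all probes. This does not show that the constructs are equal in these genes. The median difference of the 7 genes to empty vector was -0.17 for MBD-TET1-CDwt, -0.08 for TET1-CDwt, and -0.15 for MBD-TET1-CDmut, where the medians of all 14397 genes were 0.01, 0.00 and -0.01.

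Markers of HEK293T cells and some markers of other cell types were both found above background. All 7 HEK293T marker genes, among them VIM, KRT18, LIN28B and PAX2, were well above background on all 8 arrays. The log2 of their summed signal lay between 7.0 and 7.40 in 6 clones and at 7.78 and 7.50 in MBD-TET1-CDmut. This sum mostly follows VIM, by far the brightest of them. VIM lay between 7.27 and 7.59 in MBD-TET1-CDmut and between 6.61 and 7.13 in the other clones. Of 9 markers of mature kidney, 3 were above background on all arrays and AQP2 and SLC12A1 on none. Of 9 markers of blood, fibroblast, endothelial and liver cells, CD3E, COL1A2, PECAM1 and ALB were above background on no array, and PTPRC, CD14, COL1A1, CDH5 and APOA1 were on all 8. Their part in the results was not tested. The constructs themselves were not visible in the brighter probes, as that of TET1 ranged from 2.61 to 2.94 and that of MBD2 from 1.25 to 1.65. The dimmer TET1 probe read -0.70 and -0.91 in MBD-TET1-CDmut and between -1.55 and -1.03 in the other clones. The dimmer MBD2 probe ranged from -5.21 to -2.57 over all 8 arrays. It is not given whether any of these probes lie in the cloned parts. As a loading check, B2M ranged from 2.95 to 3.13. The brighter ACTB probe lay between 6.99 and 7.31 in 7 clones and at 7.97 in MBD-TET1-CDwt #3. The dimmer ACTB probe ranged from 2.80 to 3.45 over all 8 arrays, with MBD-TET1-CDwt #3 within that range at 3.30.

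The wider glutathione system was read from 7 lists, with CHAC2, TXNRD1 and SRXN1 in 2 of them and SLC7A11 in 3. In none of these lists did limma call a gene in any of the 5 comparisons, and up to 4 genes farthest from empty vector in MBD-TET1-CDwt are described for the lists below. The median difference between MBD-TET1-CDwt and empty vector over 11 other genes of glutathione turnover was 0.01, and it was -0.10 without MBD-TET1-CDwt #3 and 0.10 without #10. DPEP1, a dipeptidase that splits cysteinylglycine, was above background on both arrays of MBD-TET1-CDwt and on 1 of TET1-CDwt, so it entered the tests through the construct in which it is high and no p is given. It read -5.51 and -5.76 in empty vector, -5.15 and -6.65 in TET1-CDwt, -4.70 and -4.26 in MBD-TET1-CDwt, and -6.24 and -5.93 in MBD-TET1-CDmut. MBD-TET1-CDwt exceeded empty vector, which was not above background, 2.23-fold as measured, and it exceeded MBD-TET1-CDmut at least 2.07-fold. CHAC2, a slower relative of CHAC1, differed by 0.31 (limma adjusted p = 0.924) with its MBD-TET1-CDwt clones at 0.58 and -0.70 on either side of every other clone. GGACT, another cyclotransferase that forms 5-oxoproline, differed by -0.27 (limma adjusted p = 0.893), and the transferase GGT5 was above background in empty vector alone, at least 1.14-fold over MBD-TET1-CDwt.

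Among 12 genes that supply cysteine and glutamate, the median difference between MBD-TET1-CDwt and empty vector was -0.19 and lay between -0.21 and -0.10 over 11 alternatives. Of the 12, 2 were higher without overlap, against 15.2% of all genes, and 6 lower, against 14.6%. SLC1A1, a transporter that brings glutamate and cysteine into cells, lay at -2.09 and -2.44 in empty vector, -1.53 and -1.87 in TET1-CDwt, -1.13 and -0.43 in MBD-TET1-CDwt, and -1.96 and -1.90 in MBD-TET1-CDmut. Its difference to empty vector was 1.49 (SE 0.28, limma adjusted p = 0.297) and to MBD-TET1-CDmut 1.15 (limma adjusted p = 0.503). SLC3A2, the heavy chain of the cystine carrier, lay on the other side, at 3.67 and 3.16, 3.35 and 3.44, 1.75 and 2.66, and 3.59 and 3.74, a difference of -1.21 (SE 0.32, limma adjusted p = 0.541) to empty vector and of -1.46 (limma adjusted p = 0.426) to MBD-TET1-CDmut. CTH, which makes cysteine from cystathionine, differed from empty vector by -0.999 (SE 0.37, limma adjusted p = 0.723).

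Glutathione S-transferases couple glutathione to foreign and oxidized compounds, and their list held the widest difference of the 7. The probe of GSTT2, a theta-class glutathione S-transferase, read -7.92 and -7.77 in empty vector, -4.70 and -6.81 in TET1-CDwt, -3.93 and -2.01 in MBD-TET1-CDwt, and -7.67 and -7.67 in MBD-TET1-CDmut. It was above background in 3 clones, both of MBD-TET1-CDwt and TET1-CDwt #2, and MBD-TET1-CDwt exceeded empty vector at least 7.68-fold and MBD-TET1-CDmut at least 5.88-fold. GSTT2 has a near-identical copy, GSTT2B, and the probe may read both. GSTM4 lay at -4.80 and -4.68, -3.86 and -4.59, -3.91 and -2.99, and -4.55 and -4.44, a difference of 1.30 to empty vector (SE 0.36, limma adjusted p = 0.557). GSTO2 differed by 0.70 (limma adjusted p = 0.905) and GSTZ1 by -0.50 (limma adjusted p = 0.877). Over all 16 transferases tested the median was 0.01, with 8 genes above and 8 below empty vector. Without MBD-TET1-CDwt #3 the median was 0.24, with 12 above and 4 below, and without #10 it was -0.11, with 6 above and 10 below.

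GPX7, a glutathione peroxidase of the endoplasmic reticulum, was above background in the MBD-TET1-CDwt clones alone, at -5.13 and -4.80, against -8.24 to -7.16 in the 6 other clones. These clones exceeded empty vector at least 1.94-fold and MBD-TET1-CDmut at least 1.48-fold, and here too the gene entered the tests through the construct in which it is high. The other 3 named genes of the 11 peroxidases and glutaredoxins, GLRX2, GPX8 and GLRX, differed from empty vector by 0.27, 0.25 and -0.23, and the median of the list was 0.15. It was -0.0059 without MBD-TET1-CDwt #3, with 5 genes higher and 6 lower, and 0.30 without #10. Among 12 thioredoxin and peroxiredoxin genes, whose products reduce peroxides and disulfides beside glutathione, the median was 0.07 (-0.023 without MBD-TET1-CDwt #3 and 0.18 without #10). TXNIP, an inhibitor of thioredoxin, differed by 0.64 (SE 0.25, limma adjusted p = 0.755), PRDX1 by 0.26, PRDX5 by -0.21 and TXNRD3 by 0.19, with overlap in the last 3.

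NRF2, encoded by NFE2L2, is the transcription factor that drives GCLC, GCLM, GSR and many other antioxidant genes. Of 16 tested genes of its pathway, 12 were below and 4 above empty vector in MBD-TET1-CDwt, with a median of -0.09. In TET1-CDwt 3 were below and 13 above, with a median of 0.24. GCLC, GCLM and GSR are not among the 16, and in TET1-CDwt they differed from empty vector by 0.31, -0.43 and -0.08. In TET1-CDwt 7 of the 16 were higher without overlap, against 12.5% of all genes, and 0 lower, against 14.2%. The median in TET1-CDwt stayed between 0.12 and 0.38 over 11 alternatives, whereas in MBD-TET1-CDwt it ranged from -0.16 to 0.03. NQO1, a quinone reductase, was above background in both clones of MBD-TET1-CDwt and of TET1-CDwt and in no other. MBD-TET1-CDwt was 2.01-fold over empty vector as measured. HMOX1, heme oxygenase, lay at 1.29 and 1.98, 1.00 and 3.91, 2.14 and 0.56, and 1.14 and 0.98, with TET1-CDwt #5 far above the others. PGD differed by -0.36 (limma adjusted p = 0.876) and MAFG by -0.23 (limma adjusted p = 0.947).

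ATF4 is the transcription factor of the amino acid response, and CHAC1 is among its targets. Of 18 tested genes of this pathway, 16 were below empty vector in MBD-TET1-CDwt, with a median of -0.53, and 7 were lower without overlap, against 14.6% of all genes, and 1 higher, against 15.2%. Within the slide of both fusions, 16 of 18 were below MBD-TET1-CDmut, with a median of -0.39, which was -0.10 without MBD-TET1-CDwt #3 and -0.71 without #10. In TET1-CDwt 14 were above empty vector, with a median of 0.21, and in MBD-TET1-CDmut 9 were above and 9 below. The MBD-TET1-CDwt median was carried mainly by clone #3, being -0.80 without clone #10 and -0.17 without clone #3. DDIT3, a transcription factor of stress responses, lay at 1.35 and 0.78, 1.19 and 1.30, -2.18 and 0.64, and 1.39 and 1.73, a difference of -1.83 to empty vector (SE 0.79, limma adjusted p = 0.772). TRIB3, a pseudokinase that restrains ATF4, lay at 4.57 and 4.18, 4.60 and 4.93, 2.34 and 4.06, and 4.26 and 4.41, a difference of -1.18 (SE 0.51, limma adjusted p = 0.771). PCK2, mitochondrial phosphoenolpyruvate carboxykinase, differed by -1.26 (SE 0.58, limma adjusted p = 0.789). ATF5 lay on the other side, at -2.11 and -2.51, -1.57 and -1.96, -1.68 and -0.44, and -1.76 and -2.00, a difference of 1.25 (SE 0.40, limma adjusted p = 0.660). In DDIT3, TRIB3 and PCK2, as in CHAC1, MBD-TET1-CDwt #3 was the lowest of the 8 clones, while OPLAH was higher in clone #10.

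Of the 10 measured genes on each side of OPLAH on its chromosome, 19 of 20 were tested and limma called 0 in any comparison. In MBD-TET1-CDwt against empty vector, 2 passed as higher without adjustment, against 2.84% of all tested probes. On the lower side 0 passed, against 3.76%. There 9 were above and 10 below empty vector, with a median of -0.02. EPPK1 and PARP10, 2 of the 19, were at least 2-fold higher, against 1.53% of all tested genes, and 0 were at least 2-fold lower, against 0.993%. Without overlap 4 were higher, against 15.2%, and 0 lower, against 14.6%. The nearest gene on one side, SPATC1, was not above background on any array, and GRINA, a glutamate receptor-associated protein, differed from empty vector by -0.27 (SE 0.22, limma adjusted p = 0.900). On the other side EXOSC4, a subunit of the RNA exosome, differed by 0.11 (SE 0.24), GPAA1, of the GPI anchor transamidase, by -0.14 (SE 0.27), and CYC1, cytochrome c1, by -0.07 (SE 0.19), with limma adjusted p between 0.954 and 0.968.

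PARP10, a mono-ADP-ribosyltransferase that is the third gene on the side of SPATC1, was the nearest neighbor whose MBD-TET1-CDwt clones stood apart. It lay at -4.59 and -3.99 in empty vector, -3.62 and -4.71 in TET1-CDwt, -3.51 and -2.81 in MBD-TET1-CDwt, and -4.82 and -4.79 in MBD-TET1-CDmut. Both MBD-TET1-CDwt clones were above all 6 others, by 1.13 over empty vector (SE 0.41, limma adjusted p = 0.725) and by 1.64 over MBD-TET1-CDmut (limma adjusted p = 0.508). EPPK1, named after its values were seen, was 1.07 above empty vector (limma adjusted p = 0.738) and 0.36 above MBD-TET1-CDmut (limma adjusted p = 0.898). The differences of the 19 genes to empty vector lay between -0.34 and 1.13, against 5.06 for OPLAH.

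The genes whose pattern over the 8 arrays was most like that of OPLAH were COL2A1, DMRTB1, TCF15, MEIOC, HPDL and PRSS21. Likeness was the mean absolute difference between log2 values after each gene was centered on its own mean, over 13669 named genes that both MBD-TET1-CDwt clones expressed above background, for which the median was 1.94. The 6 genes had values from 0.34 for COL2A1 to 0.53 for PRSS21, whereas the 7 other genes of the cycle had values between 1.84 and 2.14, on both sides of that median. COL2A1, a cartilage collagen, read -4.29 and -1.73 in the MBD-TET1-CDwt clones and between -8.22 and -7.74 in the other 6. TCF15, a transcription factor of somite development, read -0.76 and 1.35 against -4.90 to -4.04. HPDL, an enzyme of the pathway to coenzyme Q, read -0.22 and 1.72 against -6.06 to -5.33.

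In all 6 genes clone #10 exceeded clone #3, by 1.43 in PRSS21 to 2.56 in COL2A1, against 2.95 in OPLAH. MBD-TET1-CDwt exceeded empty vector at least 4.55-fold in MEIOC, 7.47-fold in COL2A1 and 13.2-fold in DMRTB1, none of which was above background in empty vector, and it was 19.5-fold, 22.3-fold and 80.1-fold above it in PRSS21, TCF15 and HPDL, with dim values set to the lowest measurable signal. Upstream windows were given for 4 of them, with 7 CG pairs in DMRTB1, 11 in PRSS21, 17 in HPDL and 27 in MEIOC, against the median of 11. The 6 genes were picked by this likeness, so their resemblance to OPLAH is a description and carries no test.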

How the data were processed

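The authors made cRNA with the Cy3 dye from 8 stable HEK293T lines and scanned 1 Agilent array for each. The deposited intensity of a spot is what Agilent Feature Extraction (version 9.5.1 per the labels, 10.7.3.1 per the file headers) gave after it subtracted background and removed trends across the array, and arrays were not scaled to each other. The series table holds the same intensities in all 44495 rows.

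Controls and flagged outlier spots (213 to 269 for each array) were dropped, and repeat spots of a probe were averaged on the log2 scale. The 75th percentile over the probes of each array was then subtracted. This percentile lay between intensities of 328 and 527, and between 63.2% and 68.2% of probes were well above background. The SD of 1 clone over all tested probes was 0.35 in empty vector and 0.38 in TET1-CDwt. It was 0.50 in the active fusion and 0.25 in the inactive one. Probes were named through RefSeq transcripts (25422 of 34127), and the probe with the highest mean stood for its gene. limma (version 3.58.1, under R 4.3.3) used all 8 arrays with a mean for each construct and 4 residual degrees of freedom. It covered the 22530 probes that exceeded background clearly in both clones of some construct, with Benjamini-Hochberg adjustment over all of them, and was tested on simulated data. Where the lower group was dim, its signal was raised to the dimmest signal of that array called well above background, unless it already exceeded this. Clones are separate lines, but each gave 1 array, so p-values measure the spread between these clones only.

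The member genes, gene lists and neighbors were chosen with earlier results of these data known. Named are all members, up to 4 genes of each list by size of the difference between MBD-TET1-CDwt and empty vector, the 3 nearest neighbors on each side, the 6 genes most like OPLAH, and TET1, MBD2, ACTB and B2M. PARP10 is among the nearest neighbors, and EPPK1 was named after its values were seen. The result of 1 listed gene is not reported here. Alternatives were normexp background correction (offset 50, on median spot signals, since means were not used here), median and quantile scaling, other filters and floors, other limma settings, the mean over probes of a gene, and leaving out each clone. The slides separate the MBD fusions from the other constructs, so no fit could hold slide beside construct. RT-PCR, bisulfite and LNCaP experiments were not analysed here. Counts and figures were made in Python 3.11.15.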

Additional observations from a re-analysis of the deposited data

How the results depend on the processing

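Alternatives were other scalings, filters, floors, priors and probe choices, and leaving out each clone. The differences of MBD-TET1-CDwt to the 3 other constructs in OPLAH were recomputed with normexp, median and quantile scaling, both floors and each clone left out, and they kept their sign there. With normexp (without spots in very bright local background, chosen after seeing the data) the OPLAH log2 difference of MBD-TET1-CDwt was 2.15 to empty vector, 2.19 to MBD-TET1-CDmut and 2.57 to TET1-CDwt. On all spots these were 0.90, 1.35 and 2.57, where the fitted background mean was -1321 on empty vector #2 and -240 on MBD-TET1-CDmut #10 and between -4.21 and 3.51 on the other arrays. Leaving out 1 clone, the number of member genes without overlap lay between 1 and 4 above and 3 and 5 below empty vector in MBD-TET1-CDwt, 2 and 3 above and 3 and 5 below it in TET1-CDwt, and 0 and 2 above and 3 and 5 below it in MBD-TET1-CDmut. The highest of these counts came without empty vector #1 on the higher side of both fusions and without empty vector #2 on the lower side of all 3 constructs. MBD-TET1-CDwt had 2 to 4 genes above MBD-TET1-CDmut (4 without either MBD-TET1-CDwt clone) and 1 to 3 below (3 without either), and 1 to 3 above TET1-CDwt (3 without TET1-CDwt #5) and 3 to 5 below (5 without TET1-CDwt #2). With median scaling 1 gene was below empty vector in MBD-TET1-CDmut as in TET1-CDwt, and 2 were below MBD-TET1-CDmut in MBD-TET1-CDwt with quantile normalization and 2 with the mean over all probes of a gene. The number at least 2-fold lower rose from 0 to 1 without empty vector #1 in MBD-TET1-CDmut and TET1-CDwt, and in MBD-TET1-CDwt against TET1-CDwt without TET1-CDwt #2 or MBD-TET1-CDwt #10. That mean was not run for OPLAH, which has 1 probe. Leaving out a clone makes it easier for constructs not to overlap, so the counts without overlap could then only stay or rise. They cannot be set against the shares of all genes given above, which had both clones in each construct. The cause of the other shifts was not tested.

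No adjusted p of the 7 other genes fell under 0.181 in any alternative. Some differences near 0 changed sign. GGCT in TET1-CDwt against empty vector was 0.064 with normexp and 0.061 with median scaling, GSR there was 0.011 with median scaling, and GSR in MBD-TET1-CDwt against TET1-CDwt was -0.011 with normexp and -0.023 with median scaling. Leaving out each clone in turn, MBD-TET1-CDwt minus empty vector ranged from -0.034 to 0.14 in GCLC, -0.17 to 0.078 in GSR, -0.52 to 0.18 in GGCT and -0.67 to 0.59 in GCLM. For TET1-CDwt minus empty vector the ranges were -0.21 to 0.043 in GSR, -0.38 to 0.32 in GGCT and -1.07 to 0.20 in GCLM. For MBD-TET1-CDmut minus empty vector they were -0.080 to 0.092 in GCLC, -0.47 to 0.23 in GGCT, -1.22 to 0.052 in GCLM and -0.26 to 0.054 in CHAC1. For MBD-TET1-CDwt minus MBD-TET1-CDmut they were -0.040 to 0.14 in GCLC, -0.17 to 0.068 in GGCT and -0.30 to 0.22 in GGT7. For MBD-TET1-CDwt minus TET1-CDwt they were -0.063 to 0.13 in GSR, -0.44 to 0.16 in GGCT, -0.39 to 0.12 in GGT7 and -0.0064 to 0.79 in GCLM. With normexp the median of all tested probes was -0.11 in TET1-CDwt against empty vector and 0.12 in MBD-TET1-CDwt against TET1-CDwt. No paired analysis was possible because the clones were isolated independently and nothing links clones of different constructs as pairs. A lone clone left in a group was assumed to vary like the other groups.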
